A study of Mus musculus with 8 samples.

Results

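Very long chain galactolipids and their sulfated forms, the sulfatides, are among the lipids that set myelin apart from other membranes, and the mRNAs of 9 genes that make or break them down were followed in the striatum of mice with and without the 16p11.2 deletion. The 9 genes were chosen by name for their place in the pathway, out of 55032 genes in the deposited table: Elovl1, Elovl7, Fa2h, Cers2, Ugt8a and Gal3st1 on the synthesis side, and Galc, Arsa and Psap on the breakdown side. All 9 had enough reads to be tested. Total RNA from striatum of 4 wild type (WT) mice and 4 16p11.2+/- mice, named DF in the labels, was sequenced with 1 library per mouse. All 8 mice were females of the C57BL/6 strain and 60 days old. The 16p11.2+/- mice carry a germline deletion of 1 copy of the mouse segment that matches human 16p11.2, so every cell of the body carries it, and the dissected striatum holds neurons and several kinds of glia together. A smaller number of oligodendrocytes and less RNA per oligodendrocyte cannot be told apart in such bulk tissue. The study counted oligodendrocyte lineage cells and mature oligodendrocytes in striatum by immunostaining at 60 days, and reported no difference between genotypes in either.

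Sphingolipids with very long acyl chains are made in steps. ELOVL enzymes lengthen the acyl chain, FA2H adds a hydroxyl group to it, CERS2 joins very long acyl chains to the sphingoid base to give ceramide, UGT8 adds galactose to give galactosylceramide, and GAL3ST1 adds sulfate to give sulfatide. In lysosomes ARSA removes the sulfate and GALC the galactose, both with the help of saposins cut from the Psap product. In the brain the galactosylation step is a property of myelinating oligodendrocytes, whereas lysosomal breakdown takes place in all cell types.

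The labels were checked before the pathway was described. For the 18 measured genes of the deleted segment the log2 fold change (16p11.2+/- minus WT) was below 0 throughout, its median was -1.0, and 13 of them passed an adjusted p of 0.05 in edgeR's quasi-likelihood test. Library totals lay between 15125051 and 16523429 reads on genes. Striatal identity varied between mice: Ppp1r1b, a marker of medium spiny neurons, ranged from 47.5 to 359 FPKM (reads scaled by exon length and library total), with the lowest values in DF-1062 and DF-1037. Markers of other regions also varied. A thalamus score, the average log2 CPM over 8 marker genes, was 4.11 to 4.29 in 3 WT mice and 7.24 in WT-1063, and it was 6.58, 7.34, 4.53 and 6.42 in DF-1018, DF-1037, DF-1059 and DF-1062. A cortical neuron score, built the same way from 6 markers, was 6.75 in DF-1037, 6.28 in WT-1015 and 6.42 in WT-1041. In the other mice the cortical score was 3.10 to 5.26. Choroid plexus RNA, read from Ttr, reached 4273 FPKM in WT-1063 and 453 in WT-1015, and the lowest value over the 8 mice was 1.12. Of 12 markers of mature oligodendrocytes, none of them among the 9 genes, all had lower mean values in 16p11.2+/- mice, 7 of them with an unadjusted p under 0.05 in edgeR, as 2.37% of all genes tested, and none with an adjusted p under 0.05. Their median log2 fold change was -0.33. Of the Schwann cell markers, Pmp2 and Cdh1 were at 0 in some mice.

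Cers2 was also assayed by qRT-PCR, and the primers of that assay are given here to show which part of the mRNA they read. Positions are in the GRCm38 build (GENCODE M21), in which Cers2 covers chr3:95314791-95323599 on the plus strand with 10 exon blocks.
CerS2 forward: ccagtcttctcaaaaagttccg
CerS2 reverse: ggaccagtagaaggaaagttca
The forward primer lies in exon 4 (chr3:95321030-95321051) and the reverse primer in exon 7 (chr3:95321610-95321631) of a protein coding transcript with 11 exons, both within the coding sequence. The product is 197 bases long in each of the 3 protein coding transcripts that both primers match. The RNAseq counts instead cover all 3676 exonic bases of the gene, of which 5.96% overlap exons of 6330562C20Rik and Setdb1 on the opposite strand.

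The 250 bases before the start sites of 3 of the 6 synthesis genes are shown (RefSeq, build GRCm38.p6), written along the strand of the gene. GC boxes (GGGCGG on either strand, known to bind SP family factors) and the CCAAT box are in capitals. These 3 were printed because their windows lie outside annotated exons and hold 3 or more GC boxes. Their GC box counts therefore follow from the choice, and a link of these letters to expression was not tested.
Ugt8a, chr3:125938653-125938902, minus strand: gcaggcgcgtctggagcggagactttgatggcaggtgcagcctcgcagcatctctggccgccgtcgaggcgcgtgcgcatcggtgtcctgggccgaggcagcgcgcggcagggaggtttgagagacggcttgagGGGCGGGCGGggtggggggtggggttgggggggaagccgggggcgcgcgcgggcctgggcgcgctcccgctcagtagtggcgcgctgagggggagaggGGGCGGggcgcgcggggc
Elovl1, chr4:118427843-118428092, plus strand: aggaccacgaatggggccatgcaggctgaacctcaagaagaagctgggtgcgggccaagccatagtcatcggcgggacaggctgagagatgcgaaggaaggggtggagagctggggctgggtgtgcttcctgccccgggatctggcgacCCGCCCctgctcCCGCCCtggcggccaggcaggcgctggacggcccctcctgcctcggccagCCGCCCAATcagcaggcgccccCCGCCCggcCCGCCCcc
Elovl7, chr13:108214154-108214403, plus strand: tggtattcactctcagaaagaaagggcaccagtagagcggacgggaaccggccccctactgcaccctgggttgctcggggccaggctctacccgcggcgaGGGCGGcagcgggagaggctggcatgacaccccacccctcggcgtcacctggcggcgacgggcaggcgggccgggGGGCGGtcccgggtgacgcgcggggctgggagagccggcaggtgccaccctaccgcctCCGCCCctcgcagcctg
Ugt8a and Elovl7 each held 3 GC boxes, 2 of which overlap each other in Ugt8a, and Elovl1 held 5, the third of which overlaps a CCAAT box. The window of the first Cers2 start held 2 GC boxes and that of Galc 1, while the first windows of Gal3st1, Arsa and Psap held none. The first windows of Cers2 and Gal3st1 also held 1 CCAAT box each. Over all 32817 promoter windows of this length, 32.7% held a GC box and 33.8% the letters CCAAT. The E-box CAGCTG (13.0% of all windows) and the TATA box TATAAA (12.4%), also searched on both strands, were in none of the first windows of the 9 genes that had an entry. The window of the second Cers2 start (chr3:95318580-95318829) held 2 of these E-boxes. The GC content was 76.8% for Ugt8a, 74.8% for Cers2, 73.6% for Elovl7, 72.0% for Elovl1 and 65.6% for Gal3st1, and 54.0% for Galc, 58.8% for Psap and 48.4% for Arsa, against a median of 52.4% over all windows. The letters ACAAAG, the core bound by SOX factors, were in none of the windows of the 8 genes with an entry and in 16.5% of all windows, and their absence says nothing of sites outside these 250 bases. Fa2h had no entry.

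The 9 genes covered a wide range of levels. Per length, Psap was highest with a mean of 441.8 FPKM over the 8 mice, in the 99.9th percentile of the genes tested. Ugt8a (22.5 FPKM), Cers2 (21.8) and Fa2h (17.5) came next, and their ranges overlapped one another. Elovl1 (8.13), Elovl7 (8.09) and Arsa (7.67) followed, with overlapping ranges. Every Elovl1 and Arsa value lay below the lowest Fa2h value of 13.2 FPKM, but Elovl7 reached 19.2 FPKM in WT-1063, above Fa2h in that mouse. Gal3st1 (4.31) lay below every Arsa value, and Galc (3.03) was lowest. Per length, the mRNA of the enzyme that adds galactose, Ugt8a, was 5.25 to 9.80 times as abundant in the 8 mice as that of Galc, which removes it. Each FPKM divides by all annotated exonic bases of the gene, 14879 for Galc and 4536 for Ugt8a, so this ratio depends on those lengths. In reads per mouse, Ugt8a had 1205 to 2222 and Galc 621 to 773. By reads, Galc lay above Arsa (339 to 565), Elovl1 (281 to 422) and Gal3st1 (114 to 175).

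The comparison of 16p11.2+/- with WT asks whether the steps of this pathway differ in expression. Each of the 6 synthesis genes had a log2 fold change below 0, their median was -0.32, and 4 of them, Cers2, Ugt8a, Fa2h and Elovl7, had an unadjusted p under 0.05, while 2.37% of all 18294 genes tested were lower with such a p. The 3 breakdown genes had a median of -0.05, with 2 negative and 1 positive value, and none had an unadjusted p under 0.05. None of the 9 genes passed an adjusted p of 0.05 in edgeR's quasi-likelihood test, which 0.109% of all genes did, and the lowest adjusted p among the 9 was 0.859. The median over all genes tested was -0.01. By FPKM, Cers2 was the single gene of the 9 with every 16p11.2+/- mouse below every WT mouse, an arrangement found for 1.62% of all genes tested.

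**Figure D1:**
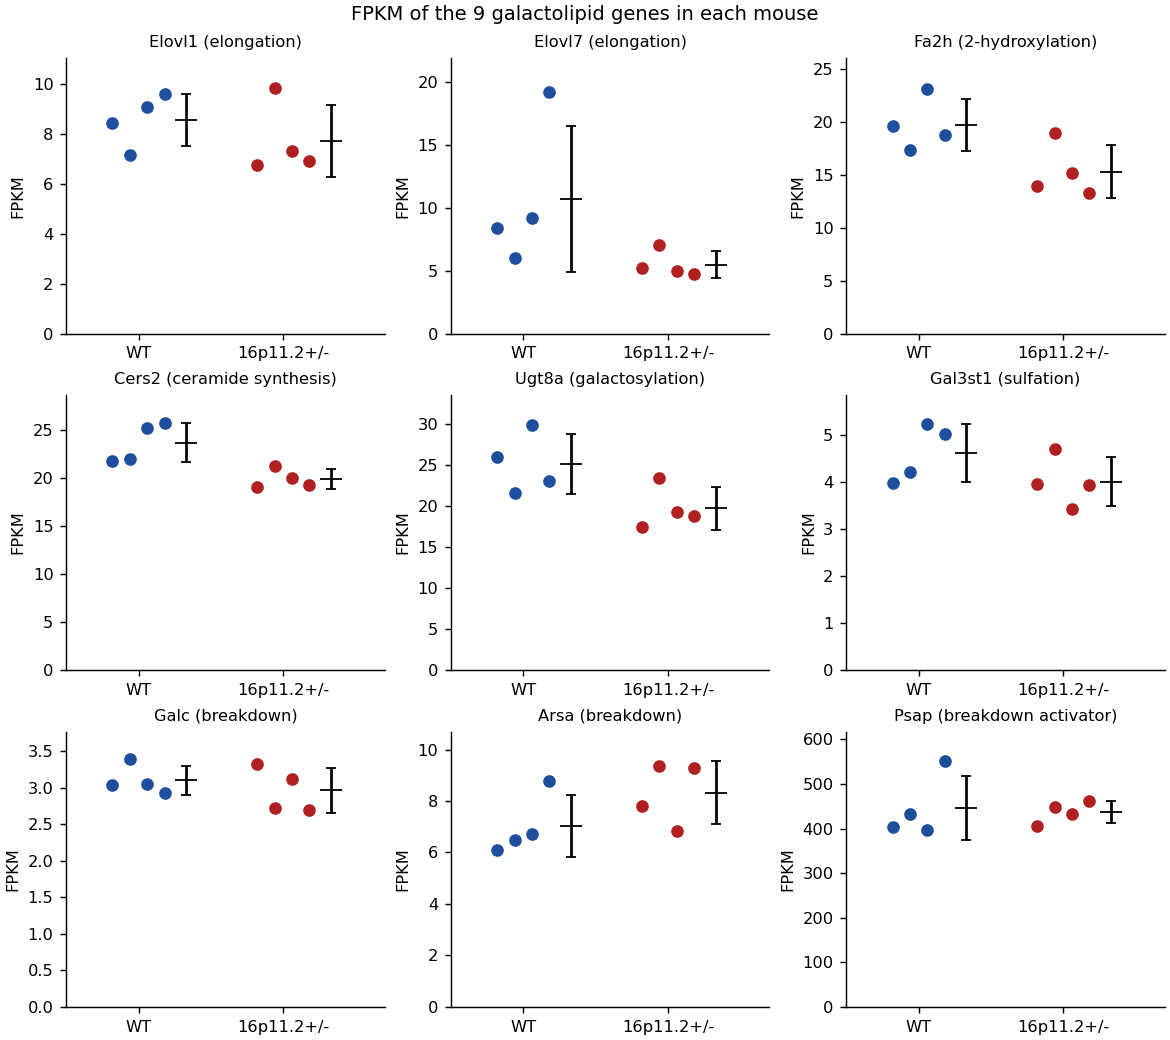
FPKM of each of the 9 genes (vertical axes, from 0) in the 4 WT mice (blue) and the 4 16p11.2+/- mice (red), in mouse number order, with the mean and SD in black beside each group. Cers2 is the panel in which the groups do not overlap, Elovl7 holds 1 WT mouse at 19.2 FPKM far above the rest, and the 3 breakdown genes in the bottom row overlap.

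Cers2, the ceramide synthase for very long acyl chains, had 21.8, 22.0, 25.2 and 25.7 FPKM in WT-1015, WT-1041, WT-1061 and WT-1063, and 19.1, 21.3, 20.1 and 19.3 FPKM in DF-1018, DF-1037, DF-1059 and DF-1062. The groups were separated by the narrow gap between WT-1015 and DF-1037. The means were 23.7 ± 2.05 FPKM (SD, n = 4) and 19.9 ± 1.02 FPKM (SD, n = 4), with an exact two-sided permutation p of 0.0286, the smallest that 4 against 4 mice allow. The log2 fold change was -0.27 with a standard error of 0.08, and the unadjusted p of 0.0110 became 0.859 after Benjamini-Hochberg adjustment in edgeR. It lay between -0.31 and -0.22 over the 8 fits that leave out 1 mouse.

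Ugt8a encodes the galactosyltransferase that commits ceramide to galactosylceramide and lies at chr3:125865271-125938619 on the minus strand, on the same chromosome as Cers2. It had 26.0, 21.6, 29.9 and 23.1 FPKM in the WT mice and 17.4, 23.4, 19.3 and 18.8 FPKM in the 16p11.2+/- mice, in the same order of mice. All 16p11.2+/- mice but DF-1037 were below every WT mouse, and DF-1037 was above 2 of the WT mice. The means were 25.2 ± 3.64 and 19.7 ± 2.59 FPKM (SD, n = 4 each, exact permutation p = 0.0857). The log2 fold change was -0.37 with a standard error of 0.13, an unadjusted p of 0.0203 and an adjusted p of 0.859 in edgeR. The unadjusted p was 0.0530, 0.0667, 0.0589 and 0.0602 when WT-1015, WT-1061, DF-1018 or DF-1062 was left out, with log2 fold changes of -0.34, -0.27, -0.32 and -0.32.

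Fa2h, the fatty acid 2-hydroxylase that gives myelin galactolipids their hydroxylated chains, lies at chr8:111345135-111393824 on the minus strand. Its FPKM was 19.6, 17.4, 23.1 and 18.7 in the WT mice and 14.0, 18.9, 15.1 and 13.2 in the 16p11.2+/- mice. The arrangement was that of Ugt8a, with DF-1037 alone among the WT values. The means were 19.7 ± 2.47 and 15.3 ± 2.52 FPKM (SD, n = 4 each, exact permutation p = 0.0857), and the log2 fold change was -0.39 with a standard error of 0.14. Its unadjusted p of 0.0241 became 0.859 after adjustment in edgeR. The unadjusted p was above 0.05 when any of WT-1015, WT-1061, DF-1018, DF-1059 and DF-1062 was left out, with log2 fold changes of -0.37, -0.29, -0.35, -0.37 and -0.29, and it was 0.0508 with the choroid plexus score as a covariate.

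Gal3st1, the sulfotransferase of the last step to sulfatide, lies at chr11:3983636-3999326 on the plus strand and was covered by only 114 to 175 reads per mouse. It had 3.98, 4.22, 5.23 and 5.03 FPKM in the WT mice and 3.95, 4.69, 3.44 and 3.94 FPKM in the 16p11.2+/- mice. DF-1037 again lay among the WT mice, and DF-1018 and DF-1062 were just below the lowest WT value by FPKM. DF-1018 and WT-1015, the lowest WT mouse, both had 123 reads, so their order rests on the scaling. The log2 fold change of -0.23 had a standard error of 0.15 and an unadjusted p of 0.169 (adjusted p = 0.859 in edgeR).

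The elongases differed from each other. Elovl1, the elongase of saturated and monounsaturated very long acyl chains (chr4:118428093-118432953, plus strand), had 8.42, 7.14, 9.07 and 9.58 FPKM in the WT mice and 6.76, 9.85, 7.31 and 6.90 FPKM in the 16p11.2+/- mice. The groups overlapped, and DF-1037 had the highest value of all 8 mice. Its log2 fold change was -0.17 with a standard error of 0.15 and an unadjusted p of 0.291 (adjusted p = 0.859 in edgeR). Without DF-1037 it was -0.31 (edgeR, unadjusted p = 0.0337), and without DF-1062 it was -0.089.

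Elovl7, an elongase of long acyl chains at chr13:108214404-108285683 on the plus strand, had 8.40, 6.02, 9.20 and 19.2 FPKM in the WT mice and 5.22, 7.03, 4.93 and 4.74 FPKM in the 16p11.2+/- mice. The value of WT-1063 stood far above the other 7, and DF-1037 was above WT-1041. The log2 fold change was -0.98 with a standard error of 0.33, an unadjusted p of 0.0163 and an adjusted p of 0.859 in edgeR, and the exact permutation p on FPKM was 0.0571. Without WT-1063 it was -0.55 (edgeR, unadjusted p = 0.0238). WT-1063 was also the mouse with the highest choroid plexus score, 7.38 against 0.23 to 4.56 in the other 7 mice, and with this score as a covariate the log2 fold change was -0.51 (edgeR, unadjusted p = 0.0229). With the thalamus score, which was also highest among WT mice in WT-1063, it was -1.26 (edgeR, unadjusted p = 0.00032). The part of choroid plexus RNA in the level of Elovl7 in WT-1063 was not tested.

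Galc, the lysosomal galactosylceramidase (chr12:98202294-98259459, minus strand), had 3.03, 3.39, 3.05 and 2.93 FPKM in the WT mice and 3.32, 2.72, 3.12 and 2.70 FPKM in the 16p11.2+/- mice. The groups overlapped, with the lowest values in DF-1062, DF-1037 and WT-1063, the 3 mice with the lowest medium spiny neuron scores. Its log2 fold change was -0.08 with a standard error of 0.10 and an unadjusted p of 0.448 (adjusted p = 0.882 in edgeR).

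Arsa, the lysosomal arylsulfatase that acts on sulfatide, lies at chr15:89472476-89477425 on the minus strand, and 18.8% of its exonic bases overlap C230037L18Rik on the opposite strand, whose reads cannot be told apart without strand. It was the 1 gene of the 9 with a positive log2 fold change. Its FPKM was 6.09, 6.49, 6.70 and 8.79 in the WT mice and 7.79, 9.35, 6.84 and 9.29 in the 16p11.2+/- mice. DF-1037 and DF-1062 were above every WT mouse, while DF-1018 and DF-1059 lay between the 3 lower WT mice and WT-1063. The log2 fold change was 0.22 with a standard error of 0.14 and an unadjusted p of 0.144 (adjusted p = 0.859 in edgeR). Without WT-1063 it was 0.34 (edgeR, unadjusted p = 0.0206). The 4 mice with the highest Arsa values were the 4 with the highest thalamus scores, and with that score as a covariate the log2 fold change was 0.044 (edgeR, unadjusted p = 0.613).

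Psap, the precursor of the saposins (chr10:60277627-60302597, plus strand), had 404, 433, 396 and 552 FPKM in the WT mice and 406, 449, 432 and 462 FPKM in the 16p11.2+/- mice. All 16p11.2+/- mice lay within the WT range, whose upper end was WT-1063. Its log2 fold change was -0.05 with a standard error of 0.12 and an unadjusted p of 0.681 (adjusted p = 0.932 in edgeR). Without WT-1063 the value was 0.063, so its sign rests on that mouse.

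The steps were also compared within each mouse, as 4 ratios of FPKM that cancel the library total. Gal3st1 to Arsa, the mRNA ratio of sulfatide making to sulfatide breaking, was 0.654, 0.650, 0.781 and 0.572 in the WT mice and 0.507, 0.502, 0.503 and 0.424 in the 16p11.2+/- mice, with no overlap. On the log2 scale it differed by -0.45 (exact permutation p = 0.0286, 0.114 after adjustment over the 4 ratios). The Arsa side of this ratio varied with the thalamus score as given above. The ratio of Cers2 to the sum of the other Cers genes was 0.652, 0.583, 0.712 and 0.769 in the WT mice and 0.570, 0.612, 0.566 and 0.460 in the 16p11.2+/- mice, which overlapped through DF-1037 and WT-1041. Its log2 difference was -0.30 (exact permutation p = 0.0571, adjusted p = 0.114). Ugt8a to Galc differed by -0.28 (exact permutation p = 0.229, adjusted p = 0.305) and Elovl1 to the other Elovl genes by -0.09 (exact permutation p = 0.429, adjusted p = 0.429), both with overlapping groups.

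**Figure D2:**
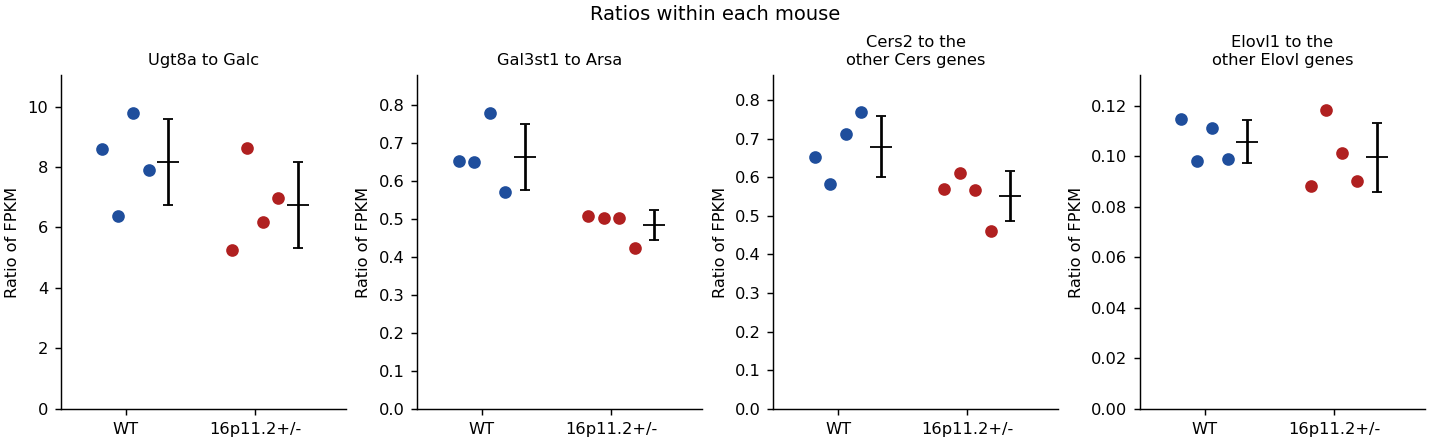
Ratio of FPKM within each mouse (vertical axes, from 0, no unit) for 4 pairs of pathway steps, with WT mice in blue, 16p11.2+/- mice in red, and the mean and SD of each group in black. The groups are apart for Gal3st1 to Arsa, where WT mice span 0.572 to 0.781 and 16p11.2+/- mice 0.424 to 0.507, and overlap in the other 3 panels.

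Cers2 made up 36.8 to 43.5% of the summed FPKM of Cers1 to Cers6 in the WT mice and 31.5 to 38.0% in the 16p11.2+/- mice. The other ceramide synthases, which prefer other acyl chain lengths, had means of 10.5 and 10.6 FPKM for Cers1, 6.36 and 7.34 for Cers4, 11.5 and 11.6 for Cers5, and 6.51 and 6.77 for Cers6 in WT and 16p11.2+/- mice. Their log2 fold changes were 0.00, 0.18, -0.02 and 0.03, with no unadjusted p under 0.05 in edgeR. Cers3 was too low to test.

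DF-1037 was the highest 16p11.2+/- mouse for 6 of the 6 synthesis genes, and among the WT mice the highest was WT-1061 or WT-1063, for 3 genes each. By FPKM, the lowest of its group was DF-1018 for 3 genes, DF-1062 for 2 and DF-1059 for 1, and WT-1041 for 4 and WT-1015 for 2. This depended on scaling. By log2 CPM, which uses TMM factors, DF-1062 and WT-1041 were lowest of their groups for every synthesis gene but Gal3st1. With the group means removed, the log2 CPM of the 15 pairs of synthesis genes had a median Pearson r of 0.74 over the 8 mice (0.22 to 0.94), while the 18 pairs of a synthesis and a breakdown gene had a median of 0.05 (-0.37 to 0.79). These pairs share mice and libraries and are given as a description.

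The synthesis genes were then set against the score of the 12 oligodendrocyte markers, the mean of their log2 CPM. The score was 7.63, 7.47, 7.87 and 7.64 in the WT mice and 7.34, 7.52, 7.33 and 6.96 in the 16p11.2+/- mice, with DF-1037 the highest 16p11.2+/- mouse here as well and the lowest value in DF-1062. With group means removed, Fa2h followed the score with a Pearson r of 0.93 (exact permutation p = 0.0139) and a Spearman rho of 0.83 (exact permutation p = 0.0313). Cers2 had an r of 0.83 (exact permutation p = 0.00694) and a rho of 0.83 (exact permutation p = 0.0313), and Ugt8a an r of 0.80 (exact permutation p = 0.0347) and a rho of 0.79 (exact permutation p = 0.0243). After adjustment over the 9 genes the lowest p was 0.0625 for r and 0.0938 for rho, so no relation passed 0.05. When DF-1062 and WT-1061, the 2 mice farthest from the median of the score, were removed, r was 0.91 for Fa2h, 0.74 for Cers2 and 0.83 for Ugt8a.

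Elovl1 (r = 0.79, exact permutation p = 0.0660, rho = 0.69, exact permutation p = 0.0781, r = 0.82 without those 2 mice) and Gal3st1 (r = 0.65, exact permutation p = 0.128, rho = 0.62, exact permutation p = 0.153, r = 0.65 without them) had similar but less certain values. Elovl7 had an r of 0.43 (exact permutation p = 0.274) and a rho of 0.71 (exact permutation p = 0.0538), and r was 0.53 without them, the point of WT-1063 lying far off the line. The breakdown genes had r of 0.19 for Galc (exact permutation p = 0.809), 0.04 for Arsa (exact permutation p = 0.943) and -0.10 for Psap (exact permutation p = 0.747). Their rho was 0.14, 0.17 and -0.10 (exact permutation p = 0.830, 0.748 and 0.835), and without those 2 mice r was -0.39, 0.35 and 0.14.

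**Figure D3:**
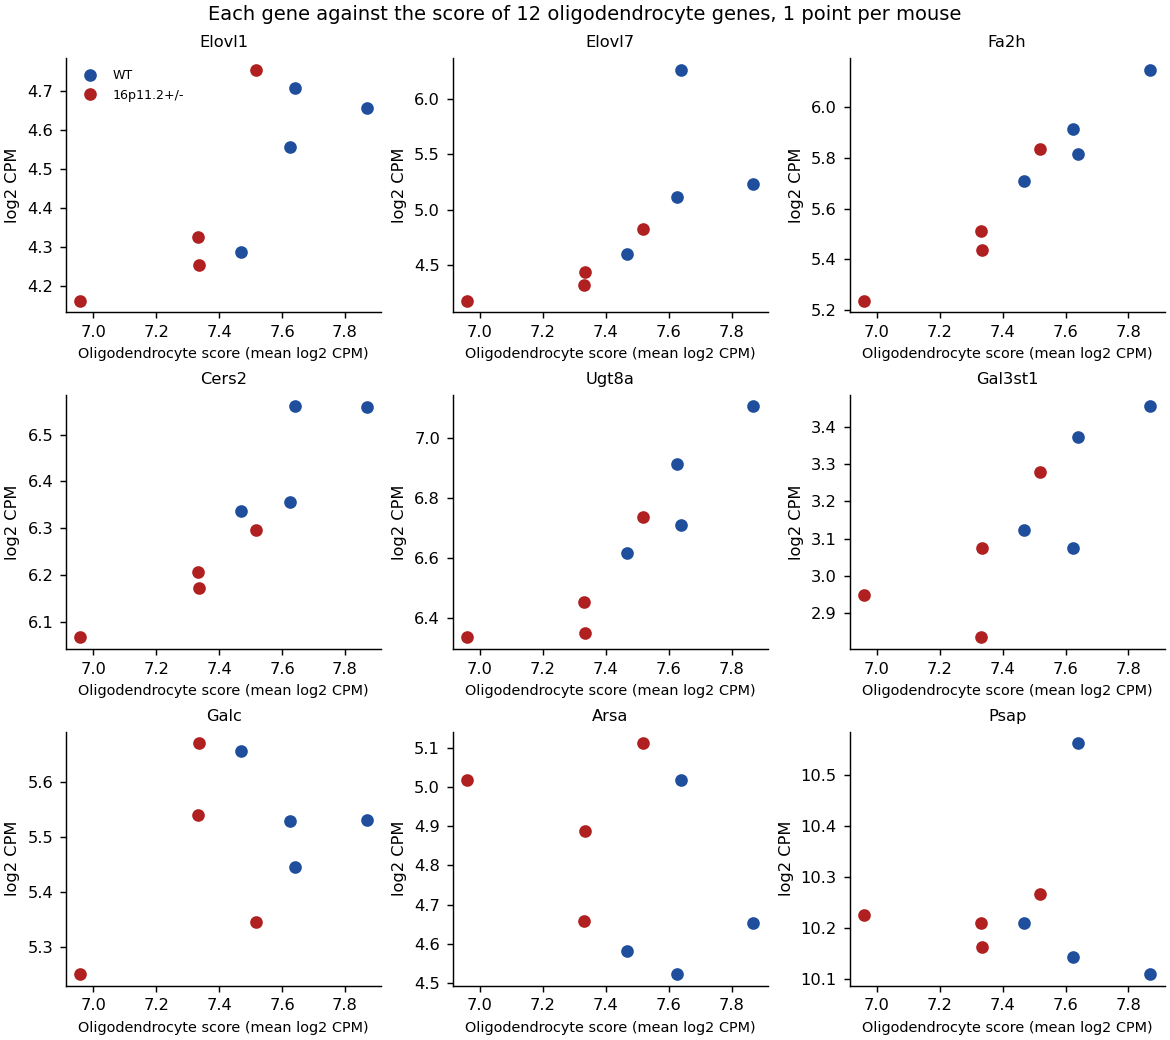
Log2 CPM of each gene (vertical axes, which do not start at 0) against the mean log2 CPM of 12 oligodendrocyte markers (horizontal axes), 1 point per mouse, WT in blue and 16p11.2+/- in red. Fa2h, Cers2 and Ugt8a lie along a rising line on which DF-1062, at a score of 6.96, is the lowest point, and Galc, Arsa and Psap do not.

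With the oligodendrocyte score as a covariate in edgeR, the log2 fold change was -0.11 for Cers2, -0.077 for Ugt8a, -0.018 for Fa2h, -0.00026 for Gal3st1, 0.15 for Elovl1 and -0.60 for Elovl7, and no synthesis gene had an unadjusted p under 0.05. Mag, Mog and Mbp, which encode myelin proteins and belong to the score, had log2 fold changes of -0.33, -0.47 and -0.44, next to -0.27 to -0.39 for Cers2, Ugt8a and Fa2h. As the score itself was lower in most 16p11.2+/- mice, the part of oligodendrocyte content in these differences cannot be told apart from the genotype.

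The genes most like each of the 9 were sought among all genes tested, by Pearson r of log2 CPM over the 8 mice. Group means were not removed here, so these r values include any shared difference between genotypes, unlike those above. Ugt8a and Fa2h were among each other's nearest genes (r = 0.973), beside Bpgm for Ugt8a (r = 0.976) and Prr18 for Fa2h (r = 0.979). Cers2 was nearest to Ankub1 (r = 0.971) and to Itgb4 (r = 0.965), Gal3st1 to Gm12418 (r = 0.978), Elovl1 to Fkbp2 (r = 0.982) and to the transferrin gene Trf (r = 0.980), and Elovl7 to Chdh (r = 0.986) and Ddr1 (r = 0.973). Galc was nearest to Fntb (r = 0.973) and Oacyl (r = 0.972), Arsa to Fign and Nrip3 (r = 0.990 each), and Psap to Slc22a5 (r = 0.986) and Marveld1 (r = 0.973). The number of genes with an r above 0.9 was 24 to 70 for the synthesis genes, 80 for Psap, 160 for Galc and 390 for Arsa. With 18294 genes and 8 mice such values are a description only.

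Finally, 62 other genes of the pathway were examined, of which 56 were tested. Elovl3, Sptlc3, Cers3, Gal3st2, Gal3st4 and Hacl1 had too few reads, at most 20 in any mouse. Their median log2 fold change was 0.01, with 25 negative and 31 positive values. None was lower and 1 was higher with an unadjusted p under 0.05, against 2.37% and 1.95% of all genes, and none passed an adjusted p of 0.05 in edgeR. None had every 16p11.2+/- mouse below every WT mouse. The 13 other genes of acyl chain activation and elongation had a median of 0.11, with 10 positive values that included Elovl6 (0.15) and Tecr (0.18), the reductase of the elongation cycle. The next 15 genes act in making ceramide, apart from Ormdl1, Ormdl2, Ormdl3 and Ugcg, which were counted with them. Their median was -0.01, and among them were Sptlc1 (-0.01) and Sptlc2 (0.11) of serine palmitoyltransferase and the desaturase Degs1 (-0.17). The next 10 genes supply or move sugar, sulfate or glycolipid, apart from the sulfotransferase gene Gal3st3, which was counted with them. Their median was -0.01, and they ranged from -0.24 for the glycolipid transfer protein gene Gltp to 0.10 for Plekha8. The 18 other genes of breakdown had a median of -0.002 and ranged from -0.33 (Arsg) to 0.27 (Acer3, an alkaline ceramidase).

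**Figure D4:**
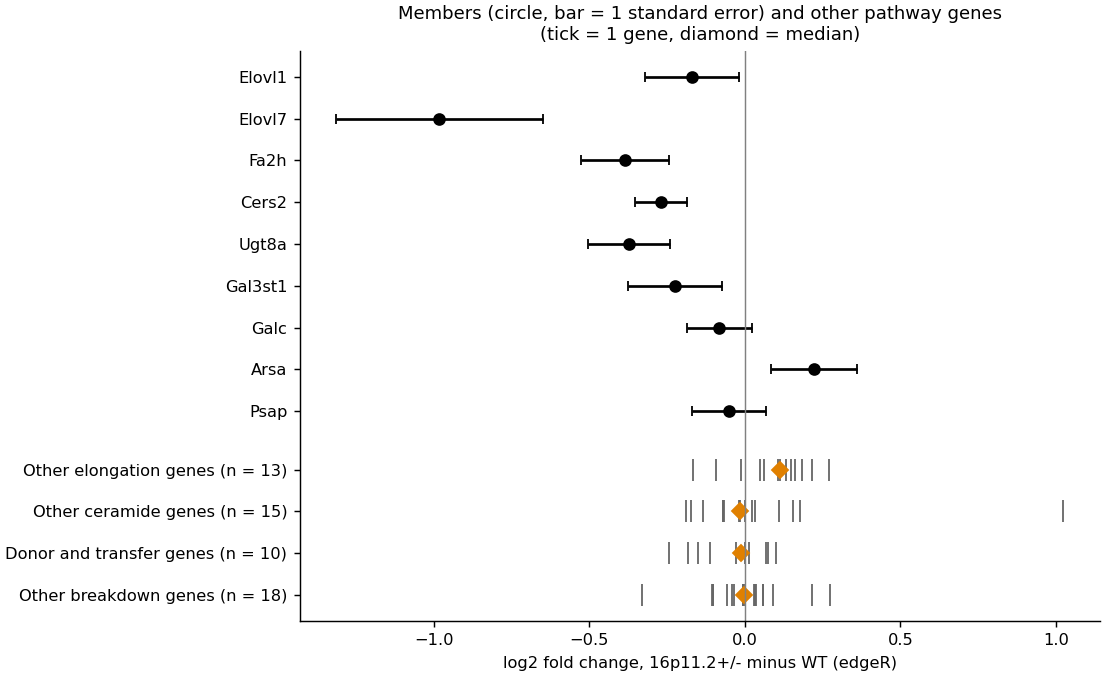
Log2 fold change, 16p11.2+/- minus WT, from edgeR (horizontal axis) for the 9 genes (circles, bars of 1 standard error) and for 56 other pathway genes in 4 steps (1 tick per gene, diamond at the median). The 6 synthesis genes in the upper rows lie left of 0, while the medians of the other genes lie between -0.01 and 0.11.

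Acsbg1, an acyl-CoA synthetase that activates long chain fatty acids and is abundant in astrocytes, was the other pathway gene with an unadjusted p under 0.05. It had 26.8, 27.4, 35.0 and 34.2 FPKM in the WT mice and 35.5, 39.7, 36.8 and 39.1 FPKM in the 16p11.2+/- mice. The groups did not overlap, as in 1.21% of all genes tested in this direction. Its log2 fold change was 0.27 with a standard error of 0.10, an unadjusted p of 0.0286 and an adjusted p of 0.859 in edgeR. With the thalamus score as a covariate, Acsbg1 did not reach an unadjusted p under 0.05 in edgeR. Nor did it when WT-1015, WT-1041 or DF-1037 was left out. The 6 astrocyte markers had a median log2 fold change of 0.04 beside it.

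Arsg, a lysosomal sulfatase, had 8.63, 7.49, 9.80 and 14.4 FPKM in the WT mice and 8.11, 9.78, 7.53 and 6.97 FPKM in the 16p11.2+/- mice, which overlapped. Sptssb, a small subunit of serine palmitoyltransferase, had the largest fold change of the list in size, 1.02 on the log2 scale, with a standard error of 0.73 (edgeR, unadjusted p = 0.198). It had 1.05, 0.50, 0.835 and 5.18 FPKM in the WT mice and 3.52, 6.74, 1.35 and 4.01 FPKM in the 16p11.2+/- mice. As for Arsa, the highest values were in the mice with the highest thalamus scores. These mice are WT-1063 and every 16p11.2+/- mouse but DF-1059, so thalamus score and genotype are partly confounded here. The part of thalamic tissue in Arsa and Sptssb was not tested.

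**Figure D5:**
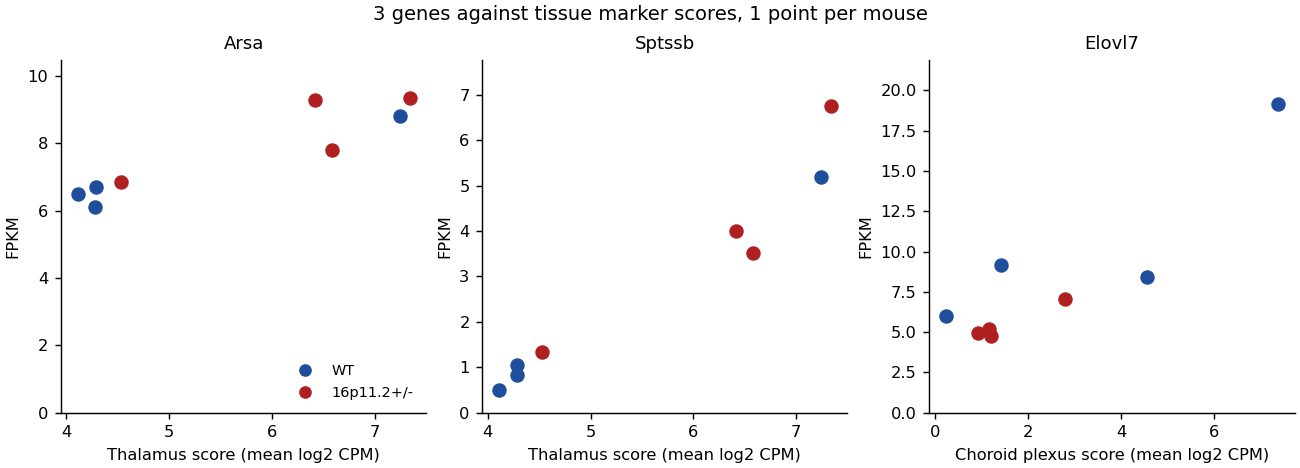
FPKM (vertical axes, from 0) of Arsa and Sptssb against the thalamus score and of Elovl7 against the choroid plexus score (horizontal axes, mean log2 CPM), 1 point per mouse, WT in blue and 16p11.2+/- in red. The 4 mice with a thalamus score of 6.42 or more, WT-1063 among them, have the highest Arsa and Sptssb values, and WT-1063 alone has the highest Elovl7 value.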

How the data were processed

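Striatum RNA of 4 WT and 4 16p11.2+/- female mice was sequenced from paired ends on a HiSeq 2000. According to the study's methods the authors mapped reads with Hisat2 and deposited, per gene and mouse, raw counts from Htseq-count and FPKM. The submitters' processing notes instead list Bowtie 0.12.2 with mm8 and mm9. The strand setting and annotation are not given in the sources used here. The deposited FPKM was checked to be the count over a fixed length and the library total, and for 97.4% of 35149 genes the implied length equals the exon length in GENCODE M21 (GRCm38), the source of the positions. The deposited table of the authors' own comparison holds log2 fold changes and p-values and was not used, nor was the summary of FPKM in bins.

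The quasi-likelihood test of edgeR 4.0.16 (R 4.3.3) was run on the counts after TMM scaling, for genes kept by filterByExpr (count of 10, total of 15), and p-values were adjusted by Benjamini-Hochberg over 18294 genes at a threshold of 0.05. Each standard error is the log2 fold change over the root of its F value. Exact two-sided permutation tests used the 70 assignments of the mice for FPKM and ratios, and relations to the oligodendrocyte score used 576 permutations within groups. Marker scores average the log2 CPM of their genes (prior count 2). Totals of 15125051 to 16523429 reads put the 9 genes at 114 to 24502 reads per mouse. Mice of a group differed well beyond counting noise, with chi-square values of 8.07 to 56.0 per degree of freedom. The labels give no batch, and nothing beyond the mouse numbers describes how the animals were related.

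Alternatives were other filters, marker scores as covariates, scaling by RLE or by totals, DESeq2 1.42.0, limma 3.58.1 (voom, or trend with 1 or 0.1 added to FPKM), and each mouse left out. The choroid plexus covariate was added after seeing the data. The code of the edgeR fit without covariates was tested on simulated counts. The 9 genes, the pathway and marker lists and the tests were chosen with earlier results of these data known. The genes named were the 9 in full, then the other pathway genes with an unadjusted p under 0.05, the 4 with the largest absolute log2 fold change and those not tested, and the 2 genes most like each of the 9, of which 1 is not reported here. Galc values against the medium spiny neuron score and the promoters printed were chosen after values were seen, as were the pathway genes named by role. Lipid levels, electron microscopy, cell counts and qRT-PCR were not analysed here.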

Additional observations from a re-analysis of the deposited data

Results flagged for a closer look

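Of 42 groups of 4 mice examined for the 9 genes, ratios, named pathway genes and marker scores, 4 held 1 mouse far from the other 3, that is with a gap to its nearest neighbour, as a share of the range of the group, above Dixon's 95% critical value. Chance alone gives such a gap in about 1 in 20 groups. The log2 ratio of Gal3st1 to Arsa was -1.24 in DF-1062 and -0.99 to -0.98 in the other 16p11.2+/- mice (gap 0.939 of the range), so the lowest mouse is also the one with the lowest oligodendrocyte score. Sptssb was at 5.18 FPKM in WT-1063 and at 0.50 to 1.05 in the other WT mice (gap 0.883). The thalamus score of WT-1063 was 7.24 against 4.11 to 4.29 (gap 0.943), and the choroid plexus score of DF-1037 was 2.80 against 0.91 to 1.19 (gap 0.854). The value of Elovl7 in WT-1063, though far from the rest by eye, was not among these 4.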

How the results depend on the processing

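No paired analysis was possible because no mouse number occurs in both genotypes. With DESeq2, limma, RLE factors, library totals and both pseudocounts and filters, all 9 genes kept the sign of their log2 fold change, and 4 were lower with an unadjusted p under 0.05. With the oligodendrocyte score as covariate that number was 0, the median of the 9 genes was -0.036, Elovl1 turned to 0.15, 2 other pathway genes were higher, and over all genes 5 passed adjustment, 288 were lower and 188 higher. With the thalamus score, 2 other pathway genes were lower and 0 higher, and 10 of all genes passed adjustment. With the choroid plexus score, chosen after seeing the data, Psap turned to 0.047, 3 of the 9 genes were lower, 1 of the 9 genes (Arsa) and 4 other pathway genes were higher, as were 750 of all genes. Without a filter 726 of all genes were lower and 638 higher. In each of these cases the cause was not tested. Leaving out each mouse in turn gave 0 to 0 of the 9 genes past adjustment, 2 to 5 lower and 0 to 1 higher with an unadjusted p under 0.05, a median of -0.31 to -0.15, 0 to 1 other pathway genes lower and 0 to 6 higher, and over all genes 8 to 18 past adjustment, 258 to 635 lower and 172 to 952 higher. Only 2 genes were lower without DF-1018, DF-1062, WT-1015 or WT-1061. Cers2 and Elovl7 kept an unadjusted p under 0.05 with each of the 8 mice left out, Ugt8a with 4 and Fa2h with 3. The log2 ratio of Gal3st1 to Arsa differed by -0.52 to -0.37 with a mouse left out, where 3 against 4 mice allow no exact p below 0.0571. The log2 fold change of Psap was -0.095 to 0.063 over the 8 such fits and its FPKM difference -25.8 to 26.1, both positive without WT-1063, and the latter 1.07 without DF-1018. Without the 2 mice farthest in the oligodendrocyte score, r turned to -0.39 for Galc and 0.14 for Psap. Gal3st1 had the fewest reads of the 9 genes, 114 to 175 per mouse.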
